A study of Mus musculus with 8 samples.

Results

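The genes described here, 10 genes for heat-shock proteins and chaperones, were chosen by name from the gene rows of 8 single-cell count tables: Hspa1a, Hspa1b, Hsph1, Hspa8, Dnaja1, Dnajb1, Hspd1, Hspe1, Hsp90aa1 and Hspa5. All 10 of the 10 genes were present in each of the 8 tables, out of 21755 gene names in any table. The tables hold UMI counts, that is, counts of single captured mRNA molecules, of CD45+ immune cells sorted from skin wounds of male mice (strain C57BL/6 in the labels, C57BL/6J in the study's methods). Diabetic wounds came from mice that were given streptozotocin (STZ), a toxin of the insulin-producing beta cells, at 120 mg/kg at 4 weeks of age and that had a blood glucose of at least 16.5 mmol/L, measured 7 days later, and control wounds came from wild-type mice. Whether control mice were given a vehicle, and the age at wounding, are not given in the sources used here. Full-thickness wounds 5 mm across were taken on days 1, 3, 5 and 7, and the wounds of 5 mice were pooled for each library, so each group had 1 library a day and 8 libraries in all. Every tissue was digested at 37 °C for 1 h before sorting. The study asked how immune cells of diabetic and control wounds differ as healing proceeds. Here the question is how the chaperone genes differ between cell classes, between days and between the 2 groups.

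Chaperones bind unfolded proteins and help them reach or regain their shape. The proteins of the Hsp70 family (from Hspa1a, Hspa1b, Hspa8 and Hspa5) hold short exposed stretches of a client protein in a cycle driven by ATP. The J-domain proteins (from Dnaja1 and Dnajb1) bring clients to them and speed up the ATP step, and Hsph1 (Hsp110) exchanges the nucleotide. Hsp90aa1 acts later on clients such as kinases and receptors. Hspd1 (Hsp60) and Hspe1 (Hsp10) form the folding chamber of mitochondria, and Hspa5 (BiP) is the Hsp70 protein of the endoplasmic reticulum. The cytosolic genes are known targets of heat-shock factor 1, which binds inverted GAA units, while Hspa5 answers the unfolded protein response.

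After barcodes with 200 genes or fewer or with 20% or more mitochondrial UMIs were left out, 35215 of 38959 barcodes remained as cells. Each library held between 19236522 and 33842509 UMIs. In the library of control day 5, 28.5% of the barcodes were left out, and its kept cells had a median of 8219 UMIs, while 1.0% to 10.6% were left out in the other libraries, whose medians were 2573 to 5219 UMIs. Levels are given as CPM, the UMIs of a gene scaled to 1000000 UMIs of the cells they were summed over, without mitochondrial genes. Cell classes were named from marker genes after clustering without any of the 10 genes, the other chaperone genes or the immediate early genes. The 5 largest classes, which are described throughout, comprised 13846 neutrophil-like, 5367 monocyte-like, 5840 macrophage-like, 2942 dendritic-like and 2468 T cell-like cells. Of the smaller clusters, 531 cells were NK cell-like, 398 osteoclast-like, 52 fibroblast-like and 148 mast cell-like. A cluster of 3623 cells with few UMIs stayed unnamed. Ptprc, the gene of CD45, was detected in every one of the 5 classes, with a median over libraries from 553 CPM in macrophage-like to 1143 in T cell-like cells, whereas it was at 339 CPM in osteoclast-like cells (median of 4 libraries) and 81.3 in the 1 library with enough fibroblast-like cells. The columns of the tables carry no barcode sequences, so barcodes shared between libraries could not be counted, and doublets were not removed.

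Hspa1a and Hspa1b, the stress-inducible Hsp70 genes, are described first. They are neighbours on chromosome 17 of the mouse genome GRCm38, at chr17:34969190-34972156 and chr17:34956436-34959238 on the minus strand. Their RefSeq promoter windows, each with 250 bases before and 50 after the start site, were the same at 296 of 300 positions. The transcripts were not compared here, and how any reads that match both genes were counted is not given in the sources used here. The share of the UMIs given to each of the pair may therefore be uncertain, and the genes are best read together. The 150 bases before each start site are shown because both carry 1 pair of inverted GAA units (GAANNTTC, in capitals) that begins 104 bases before the start, at chr17:34972157-34972306 for Hspa1a and chr17:34959239-34959388 for Hspa1b (both minus strand).
Hspa1a: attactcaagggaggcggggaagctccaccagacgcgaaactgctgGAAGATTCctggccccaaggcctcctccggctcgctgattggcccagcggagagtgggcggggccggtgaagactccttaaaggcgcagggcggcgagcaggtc
Hspa1b: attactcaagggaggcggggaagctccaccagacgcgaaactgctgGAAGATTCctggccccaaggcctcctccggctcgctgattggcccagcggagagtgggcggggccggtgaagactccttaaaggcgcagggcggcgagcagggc

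The RefSeq table (GRCm38.p6) held windows for 8 of the 10 genes, 13 windows in all. The spaced pairs GAANNTTC and TTCNNGAA, each of which reads the same on both strands, were found in 7 of the 13 windows, belonging to 6 genes, against 15.1% of all 32851 promoter windows. A run of 3 units (GAANNTTCNNGAA on either strand) was in 4 windows, of Hspd1, Hspe1 and Hsph1, against 0.603% of all windows, and these overlap the pairs. The Hsph1 windows overlap each other and hold the same run, so the windows counted are not all separate sites. The Hspd1 and Hspe1 genes lie head to head on chromosome 1 and share the stretch printed here (chr1:55088053-55088082, plus strand). It lies between the RefSeq start site of Hspe1 and one RefSeq start site of Hspd1, and within an untranslated exon of one GENCODE transcript of Hspd1. The window of the other Hspd1 start site held no such pair. The Hspa5 window on chromosome 2 had no such pair but held the endoplasmic reticulum stress element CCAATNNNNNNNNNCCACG, which was in 0.119% of all windows, and it is shown as chr2:34772019-34772048 (plus strand), within an untranslated first exon of one GENCODE transcript. Capitals mark the GAA units in the first stretch and the stress element in the second.
Hspe1: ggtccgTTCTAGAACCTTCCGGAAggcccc
Hspa5: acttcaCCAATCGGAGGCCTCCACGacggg
A match of letters is a description of the sequence and does not show that a factor was bound.

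On GRCm38, with GENCODE M21 annotation, Hsph1 lies at chr5:149614287-149636376 on the minus strand and Hspa8 at chr9:40800984-40810087 on the plus strand. Dnaja1 lies at chr4:40722150-40737149 and Dnajb1 at chr8:83608193-83612653, both on the plus strand. Hspd1 lies at chr1:55077835-55088243 (minus strand) and overlaps the start of Hspe1 at chr1:55088132-55091307 (plus strand). Hsp90aa1 lies at chr12:110690605-110702728 on the minus strand and Hspa5 at chr2:34771970-34777547 on the plus strand.

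Over all kept cells, Hspa1a stood at 96.9, 726, 524 and 1084 CPM in control wounds on days 1, 3, 5 and 7. In diabetic wounds it stood at 73.2, 519, 166 and 613 CPM on the same days. Both groups were therefore lowest on day 1, had a first high point on day 3, were lower on day 5 and were highest on day 7. Hspa1b was at 104, 675, 444 and 1013 CPM in control and 71.5, 570, 184 and 644 in diabetic wounds, the same order of days. Hsph1, the nucleotide exchange factor, was at 28.0, 135, 107 and 265 in control and 15.1, 103, 76.7 and 206 in diabetic wounds. For all 3 genes, the diabetic library was below the control library of the same day on each of the 4 days.

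**Figure D1:**
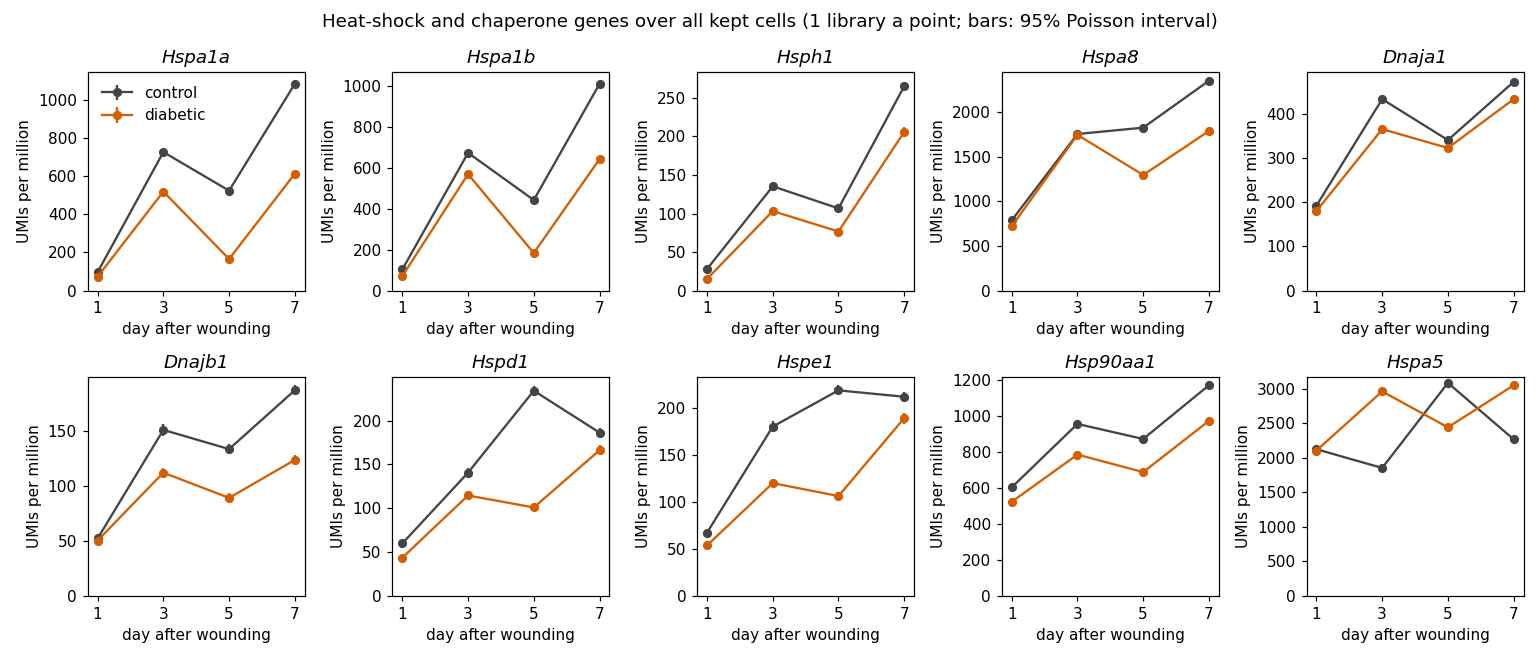
CPM of each of the 10 genes over all kept cells (y axis, linear, from 0) against the day after wounding (x axis), for control (grey) and diabetic (orange) wounds; each point is 1 library of 5 pooled mice and the bars are 95% Poisson intervals, which cover counting error only. Hspa1a runs from 73.2 to 1084 with a dip on day 5 in both groups, while Hspa5 crosses between the groups.

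The constitutive and co-chaperone genes had smaller ranges over all cells as a ratio of the highest to the lowest library. Hspa8 (Hsc70, the Hsp70 protein made without stress) was at 788, 1755, 1826 and 2352 CPM in control and 722, 1746, 1296 and 1789 in diabetic wounds. Hsp90aa1 was at 604, 957, 874 and 1173 in control and 524, 787, 689 and 975 in diabetic wounds. Dnaja1 was at 192, 434, 341 and 473 in control and 180, 366, 323 and 434 in diabetic wounds. All of these were lowest on day 1 in both groups. Dnajb1, the J-domain partner of the inducible Hsp70, was at 52.2, 151, 134 and 187 in control and 50.4, 112, 89.2 and 124 in diabetic wounds.

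The pair of mitochondrial genes did not share the dip on day 5 in control wounds. Hspd1 was at 59.8, 141, 234 and 186 CPM in control and 43.6, 115, 101 and 166 in diabetic wounds. Hspe1 was at 67.2, 180, 219 and 212 in control and 53.6, 120, 106 and 189 in diabetic wounds. These values over all cells also carry the mix of classes. Osteoclast-like cells held 19.9% of the UMIs of control day 5 and 1.18% of those of diabetic day 5, and 3456 of the 6892 Hspd1 UMIs and 2621 of the 6432 Hspe1 UMIs of control day 5. The cluster had the highest level of both genes of all clusters, 584 and 460 CPM over its 398 cells, with NK cell-like cells next for Hspd1 (532). Without the osteoclast-like cells, Hspd1 was at 59.8, 119.6, 145.7 and 171 in control and 43.6, 96.5, 95.3 and 166 in diabetic wounds, and Hspe1 at 67.2, 165, 161.6 and 201 in control and 53.6, 107, 101 and 189 in diabetic wounds, so control day 5 no longer stood above day 7 for either gene. Macrophage-like cells, with 53.7% of the UMIs of control day 5 and 6.4% of those of diabetic day 5, were at 144 for Hspd1 on control day 5. Fewer cells of a class and less RNA per cell cannot be told apart over all cells, and values within classes follow.

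Summed over each class, Hspa1a kept the dip on day 5. It was lower on day 5 than on days 3 and 7 in all 10 combinations of 5 classes and 2 groups, and so was Hspa1b. Day 7 was the highest day in 4 of the 10 combinations for Hspa1a and 6 for Hspa1b. The clusters within a class change with day, and in single clusters of macrophage-like, monocyte-like and neutrophil-like cells with all 4 days, Hspa1a was lower on day 5 than on days 3 and 7 in 11 of 14 combinations of cluster and group, of which 6 of 6 were neutrophil-like, 4 of 5 monocyte-like and 1 of 3 macrophage-like. In the exception among monocyte-like cells, the cluster led by Ifit2 and Rsad2 in diabetic wounds, day 5 was the highest day, at 643 CPM. Day 1 was the lowest day in 8 of the 10 combinations for Hspa1a and 7 for Hspa1b. The order of days was shared less fully by the others, with day 5 below days 3 and 7 in 9 combinations for Dnaja1, 8 for Hsp90aa1, 7 for Hsph1, Dnajb1 and Hspe1, and 6 for Hspa8 and Hspd1. Classes of 1 library share their digestion and sequencing, so these combinations are not replicates.

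In neutrophil-like cells, Hspa1a was at 36.0, 233, 224 and 680 CPM in control wounds and 24.7, 150, 55.8 and 277 in diabetic wounds on days 1, 3, 5 and 7. In monocyte-like cells it was at 76.2, 590, 354 and 634 in control and 61.8, 327, 164 and 314 in diabetic wounds. In dendritic-like cells the control values were 151, 769, 375 and 818 and the diabetic values 153, 680, 179 and 547. These classes thus shared the low day 1. T cell-like cells had 41.8, 839, 389 and 730 in control and 168, 530, 195 and 500 in diabetic wounds. Macrophage-like cells were the exception in control wounds, with their highest value on day 1: 1883, 1106, 674 and 1352 in control and 967, 1324, 537 and 877 in diabetic wounds. Only 65 control and 51 diabetic cells stand behind the values of day 1, 50.8% of them in the cluster led by Gpnmb and Ms4a7 in control and 52.9% in the one led by Retnla and Lyve1 in diabetic wounds, and the 95% Poisson intervals there were 1737 to 2038 and 834 to 1114, for counting error only.

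**Figure D2:**
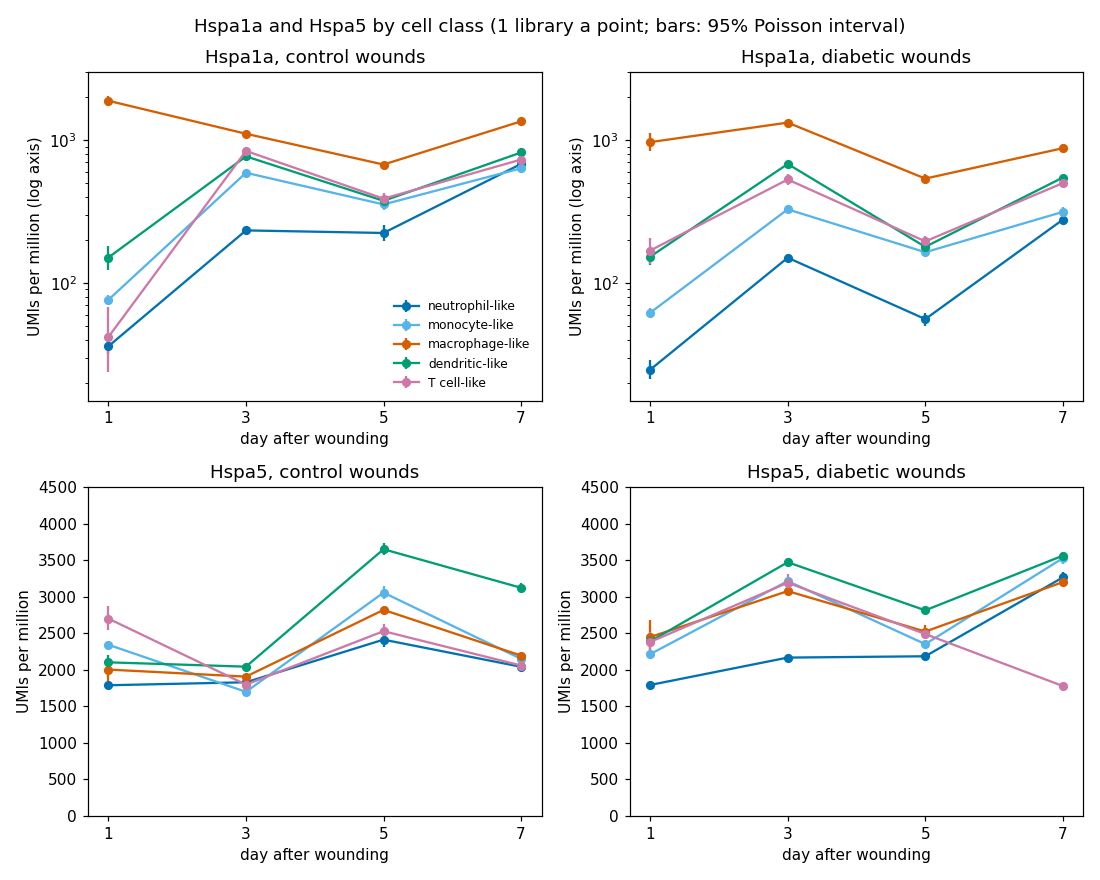
CPM (y axis; logarithmic for Hspa1a, linear from 0 for Hspa5) against the day after wounding (x axis) in control (left) and diabetic (right) wounds, with 1 line for each of 5 cell classes; points are single libraries and bars 95% Poisson intervals. Hspa1a dips on day 5 in every class, with macrophage-like cells highest throughout, and Hspa5 peaks on day 5 in every class but the T cell-like one in control wounds and is lower on day 5 than on days 3 and 7 in 3 of 5 classes of diabetic wounds.

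The order of the classes differed between genes. For Hspa1a, the median over the 8 libraries was 187 in neutrophil-like, 321 in monocyte-like, 444 in T cell-like, 461 in dendritic-like and 1037 CPM in macrophage-like cells. T cell-like and dendritic-like cells are neighbours in that order with overlapping ranges (41.8 to 839 and 151 to 818). T cell-like cells headed the order for Dnaja1, with a median of 752 and a range of 413 to 1076, while the next class, dendritic-like cells, had a median of 371 and a range of 220 to 616. T cell-like cells also had the highest medians of the 5 classes for Hsph1 (222), Dnajb1 (186), Hspd1 (250), Hspe1 (218) and Hsp90aa1 (1259), each with a range that overlapped that of the next class. Hspa5 had the narrowest spread of the 10 genes between class medians as a ratio, from a median of 2104 in neutrophil-like to 2968 in dendritic-like cells.

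Among macrophage-like cells, the 3 clusters differed in Hspa1a. In the cluster led by Retnla and Lyve1, it was at 999 to 3827 CPM in the diabetic libraries and 1997 to 3987 in the control libraries. In the cluster led by Gpnmb and Ms4a7 it was at 325 to 690 in the 3 diabetic libraries with at least 20 such cells and 395 to 1402 in the 4 control libraries. In the cluster led by Igf1 and Gdf15 it was at 677 to 773 in the 3 diabetic and 1095 to 1592 in the 3 control libraries that had at least 20 such cells. In each library, the Retnla cluster was above the other clusters that had at least 20 cells. The cluster that held most macrophage-like cells was the Igf1 cluster on day 7 in both groups (83.9% of the class in diabetic, 92.8% in control) and the Gpnmb cluster on days 3 and 5 in both groups. On day 1 it was the Retnla cluster in diabetic and the Gpnmb cluster in control wounds.

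The comparison of macrophage-like with neutrophil-like cells was paired within each library. Hspa1a was higher in macrophage-like cells in 8 of 8 libraries, by 52.3-fold on control day 1, 39.2-fold on diabetic day 1, and 1.99-fold on control day 7, where the classes were closest. Hspa8 was 1.39-fold to 13.5-fold higher, Hsph1 1.39-fold to 24.9-fold, Hspd1 1.20-fold to 21.8-fold and Hspe1 1.07-fold to 21.1-fold. Each of these was highest on day 1, where 65 control and 51 diabetic macrophage-like cells stand behind the values. On control day 1 the UMIs in macrophage-like and neutrophil-like cells were 41 and 38 for Hsph1, 52 and 55 for Hspd1, and 52 and 57 for Hspe1. On diabetic day 1 they were 10 and 21 for Hsph1. In the edgeR quasi-likelihood test with library as a block, 7 of the 10 genes were higher in macrophage-like cells, where 24.6% of all 11619 genes tested were (50.2% were called in either direction and 25.6% lower). These were Hspa1a (log2 difference 2.19 ± 0.36, SE; adjusted p = 0.00019), Hspa1b (2.0 ± 0.34), Hsph1 (1.32 ± 0.26), Hspd1 (1.19 ± 0.29), Hspa8 (1.09 ± 0.25), Hspe1 (1.05 ± 0.30) and Hsp90aa1 (0.58 ± 0.16; adjusted p = 0.0076). The median log2 difference was 1.07 for the 10 genes and 0.10 for all genes tested. Dnaja1 (-0.31 ± 0.16) and Dnajb1 (0.29 ± 0.15) did not pass the test, with adjusted p-values of 0.11 each.

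Hspa5 has no settled direction in this comparison. It was called lower in macrophage-like cells by edgeR (log2 difference -0.54 ± 0.19, adjusted p = 0.030), yet its plain CPM were 0.98-fold to 1.42-fold those of neutrophil-like cells. With scaling to total UMIs in place of TMM factors its difference was 0.21 (adjusted p = 0.15), and the median of all genes moved from 0.10 to 0.77. Under that scaling Dnaja1 moved from -0.31 to 0.43 as well, and the 7 genes named above stayed higher, with log2 differences of 1.33 to 2.90, where 51.3% of all genes were higher and 13.2% lower. Relative to that median, Hspa5 lay below it under both scalings. With TMM factors, its call was also lost without diabetic day 1 (adjusted p = 0.071), diabetic day 5 (0.070), diabetic day 7 (0.058), control day 1 (0.085) or control day 3 (0.081).

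**Figure D3:**
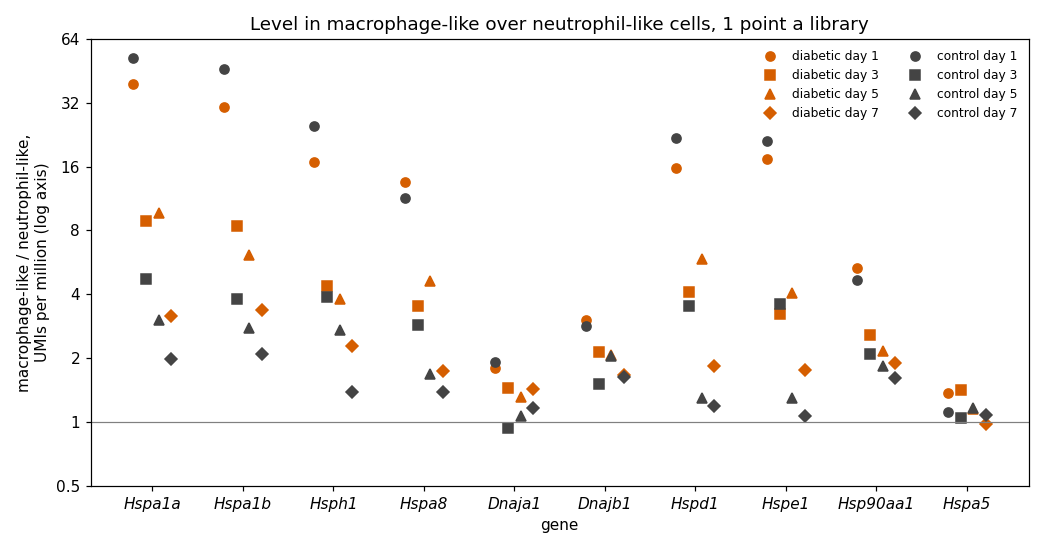
Ratio of CPM in macrophage-like over neutrophil-like cells (y axis, logarithmic) for each of the 10 genes (x axis); each point is 1 library, orange diabetic and grey control, with a symbol for each day. The ratios of Hspa1a run from 1.99 to 52.3 with both day 1 libraries on top, and those of Hspa5 stay between 0.98 and 1.42.

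The distance between these classes narrowed over the days. In an edgeR fit with the difference allowed to change linearly with day, chosen after the data were seen, 6 of the 10 genes were called, all 6 with a difference that became smaller. Of all genes, 21.9% were called in either direction, 10.9% with a change downward and 11.1% with a change upward. The log2 difference changed by -0.46 ± 0.08 a day for Hspa1a (SE, adjusted p = 0.00080), by -0.42 ± 0.08 for Hspa1b, by -0.39 ± 0.07 for Hspe1, by -0.37 ± 0.08 for Hspd1, by -0.34 ± 0.07 for Hsph1 and by -0.29 ± 0.06 for Hspa8. Dnaja1, Dnajb1, Hsp90aa1 and Hspa5 did not pass, with changes of 0.10, 0.06, -0.07 and 0.13 a day. With scaling to total UMIs these 4 were at -0.07, -0.11, -0.24 and -0.04, the median of all genes moved from -0.0058 to -0.16, Hsp90aa1 was called as well (adjusted p = 0.0035), and the 6 named genes kept their calls, where the difference changed downward for 26.4% of all genes and upward for 1.73%. The sum of macrophage markers in neutrophil-like cells was higher on day 7 as well, going from 574 on day 1 to 6075 CPM on day 7 in control and from 292 to 4397 in diabetic wounds, and its part in the narrowing was not tested.

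In neutrophil-like cells 6 of the 10 genes rose with day in the edgeR test of a linear trend common to both groups, where 22.1% of the 10215 genes tested rose and 42.4% changed in either direction. Hsph1 rose most, by 0.55 ± 0.08 on the log2 scale a day (SE, adjusted p = 0.00040), that is 1.46-fold a day. Its values were 5.05, 26.9, 42.0 and 171 CPM in control and 3.03, 29.9, 25.4 and 73.1 in diabetic wounds. Hspe1 rose by 0.45 ± 0.07, Hspd1 by 0.42 ± 0.07 and Hspa8 by 0.27 ± 0.06 a day (adjusted p = 0.00076, 0.00076 and 0.0027). Hspd1 went from 7.31 to 127 CPM between days 1 and 7 in control and from 7.07 to 71.7 in diabetic wounds, and Hspa8 from 208 to 1749 and from 189 to 1144. Hspa1a rose by 0.37 ± 0.09 a day (adjusted p = 0.0074) and Hspa1b by 0.31 ± 0.09 (adjusted p = 0.015). Hspa1a lost its call without control day 7 (adjusted p = 0.058), and Hspa1b without control day 1 (0.090), control day 7 (0.11), diabetic day 1 (0.075) or diabetic day 7 (0.054). Dnaja1, Dnajb1, Hsp90aa1 and Hspa5 had slopes of -0.04, 0.00068, -0.01 and -0.07 and were not called. Scaling to total UMIs in place of TMM factors moved the median slope of all genes from 0.02 to 0.17, kept the 6 calls, turned the slopes of these 4 genes to 0.11, 0.15, 0.15 and 0.09, and added a call for Hsp90aa1 (adjusted p = 0.0090), where 47.2% of all genes rose and 4.87% fell. With day as a factor in place of a line, which also sees the dip on day 5, the same number of 6 genes was called in neutrophil-like cells, where 24.7% of all genes were.

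Marker genes of other cells moved with this rise. All 9 macrophage markers had UMIs in the neutrophil-like cells of every library, and their summed level there was 574, 1123, 4544 and 6075 CPM in control and 292, 1345, 1029 and 4397 in diabetic wounds on days 1, 3, 5 and 7. In macrophage-like cells the same sum was 10770 to 15640. The 8 neutrophil markers summed to 52750 in neutrophil-like cells on control day 1 and 15710 on control day 7, and to 65420 and 18870 on diabetic days 1 and 7. The median mitochondrial share of neutrophil-like cells was 0.20% and 0.21% on day 1 and 0.64% and 0.50% on day 7 in control and diabetic wounds. Their part in the rise was not tested. The neutrophil-like clusters also changed: the one led by Ighg2b and Igkc held 77.8% of the class on control day 7 and 37.7% on diabetic day 7. Within the single cluster led by Hcar2 and Csf1, Hspa1a was at 27.0, 177, 143 and 544 in control and 29.2, 153, 48.6 and 242 in diabetic wounds, with 75 to 889 cells a library, and its macrophage marker sum was 340 to 5267 and 219 to 5920.

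**Figure D4:**
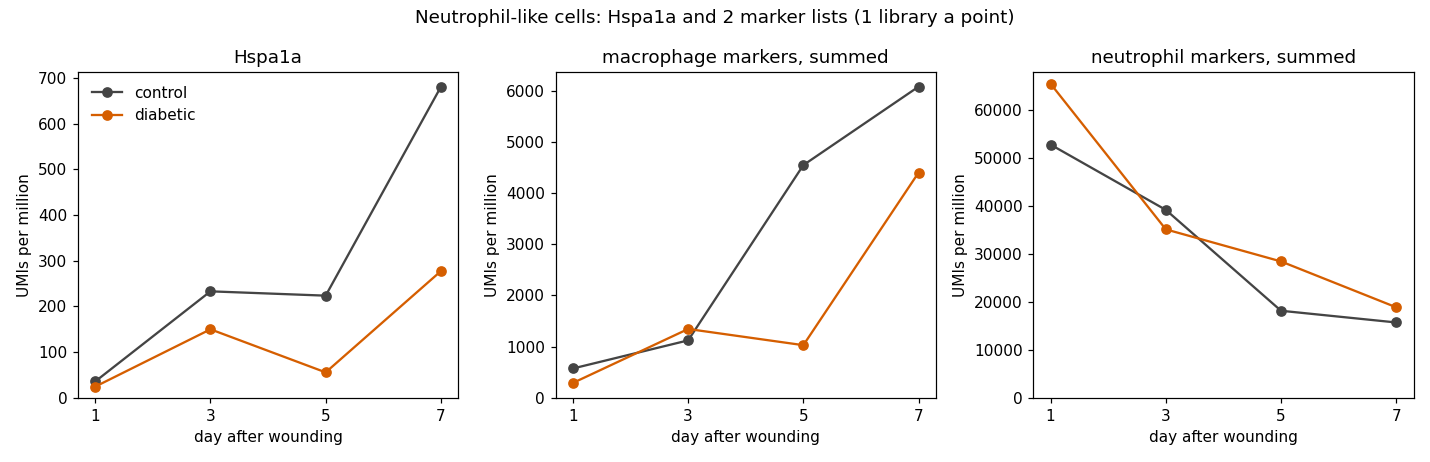
Neutrophil-like cells of the 8 libraries, in CPM (y axes, linear, from 0) against the day after wounding (x axis): Hspa1a (left), the sum of 9 macrophage markers (middle) and the sum of 8 neutrophil markers (right), control in grey and diabetic in orange. Hspa1a reaches 680 on control day 7, the macrophage marker sum is highest on day 7 in both groups, and the neutrophil marker sum is lowest on day 7 in both.

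In macrophage-like cells none of the 10 genes passed the trend test (0.676% of 10054 genes did), although Hsph1 had an unadjusted p under 0.05 (0.18 ± 0.05 a day, adjusted p = 0.21). Hsph1 passed there when cells were named singly from marker scores (0.27 a day, adjusted p = 0.029), where 1.13% of all genes passed, and at a clustering resolution of 0.4 (0.26 a day, adjusted p = 0.048), where 1.07% did. With day as a factor again 0 of the 10 passed there, against 1.84% of all genes, with 4 at an unadjusted p under 0.05, as were 13.04% of all genes. Over all cells 3 of the 10 rose with day, where 3.45% of the 13332 genes tested rose and 10.3% changed in either direction. These were Hsph1 (0.40 ± 0.10 a day, adjusted p = 0.037), Hspd1 (0.20 ± 0.05, adjusted p = 0.044) and Hspe1 (0.18 ± 0.05, adjusted p = 0.042). No gene of the 10 kept its call without control day 1, control day 7, diabetic day 1 or diabetic day 7, and 5 were called without diabetic day 3, the same 3 with Hspa1a (0.39 ± 0.10, adjusted p = 0.044) and Hspa1b (0.39 ± 0.09, adjusted p = 0.041), where 9.76% of all genes were called. Scaling to total UMIs also gave 5, the same 3 with Dnajb1 and Hsp90aa1, where 17.9% of all genes were called. With day as a factor over all cells the share of all genes called was 0%, and 8 of the 10 had an unadjusted p under 0.05, as did 19.9% of all genes.

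Diabetic and control wounds were compared on each day by the ratio of their libraries, which has a counting interval and no test. Over all cells the 95% interval lay below 1 for 8 of the 10 genes on day 1, 8 on day 3, 10 on day 5 and 9 on day 7. Among all genes with at least 200 UMIs in each library of the day, it did so for 17.9%, 40.6%, 51.9% and 29.7%. Hspa1a had diabetic to control ratios of 0.76 (0.70 to 0.81), 0.71 (0.70 to 0.73), 0.32 (0.30 to 0.33) and 0.57 (0.55 to 0.58) on days 1, 3, 5 and 7. Within classes its ratio on day 5 was 0.25 in neutrophil-like, 0.46 in monocyte-like, 0.48 in dendritic-like, 0.50 in T cell-like and 0.80 in macrophage-like cells. Macrophage-like cells held 53.7% of the UMIs of control day 5 and 6.4% of those of diabetic day 5. Over all cells, Hspa1b had ratios of 0.69, 0.85, 0.42 and 0.64, Hsph1 of 0.54, 0.76, 0.72 and 0.78, and Dnajb1 of 0.96, 0.74, 0.67 and 0.66. Hspe1 had ratios of 0.80, 0.67, 0.49 and 0.89. On day 5 without the osteoclast-like cells, Hspe1 was at 161.6 CPM in control and 101 in diabetic wounds, and its ratio in macrophage-like cells was 0.71. It was lower in the diabetic library in 20 of 20 combinations of 5 classes and 4 days. Hspa1a was lower in 17 of 20, and the 9 genes other than Hspa5 in 148 of 180. Over the 6663 genes with more than 3 UMIs in either library of each combination, 51.2% of the combinations were lower in diabetic wounds, and 7 of the 10 genes were lower in at least 16 of 20, where 7.46% of those 6663 genes were. These combinations share libraries, so the counts are descriptions. The exceptions included macrophage-like cells on day 3, in which 8 of the 9 genes were higher in the diabetic library, Hspe1 (0.84) not among them. Of these 8, the interval lay above 1 for 6, with ratios of 1.20 (1.15 to 1.25) for Hspa1a, 1.79 (1.71 to 1.87) for Hspa1b, 1.26 for Hsph1, 1.24 for Hspa8, 1.235 for Dnaja1 and 1.21 for Hspd1. The unnamed cluster, which these counts leave out, was lower in diabetic wounds in 22 of 36 combinations of the 9 genes and 4 days, and in 2 of 9 on day 7, where its ratios were 1.625 (1.42 to 1.86) for Hspa1a, 1.36 (1.18 to 1.56) for Hspa1b, 1.62 (1.20 to 2.19) for Hsph1 and 1.45 (1.27 to 1.65) for Hsp90aa1. On day 1 its ratio for Hspa1a was 1.92 (1.29 to 2.96).

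**Figure D5:**
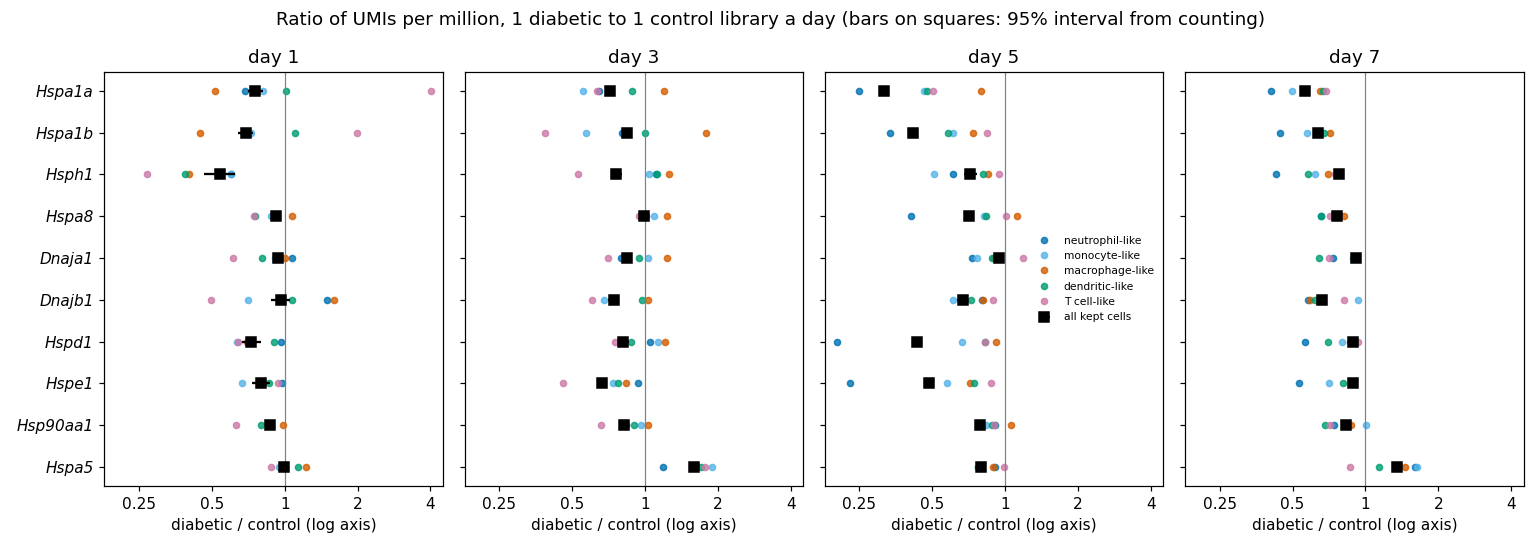
Ratio of CPM, diabetic over control (x axis, logarithmic), for the 10 genes (rows) on each of the 4 days (panels); black squares are all kept cells with 95% counting intervals and coloured points the 5 cell classes, each from 1 library a group. On day 7 every gene but Hspa5 lies below 1 over all cells, and Hspa5 lies above 1 on days 3 and 7 and below 1 on day 5.

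In the edgeR test of a difference common to the 4 days, with day as a block, none of the 10 genes was called. Over all cells 0% of the 13857 genes tested were called, and 6 of the 10 genes had an unadjusted p under 0.05, as did 11.0% of all genes. Their differences were -0.80 ± 0.21 on the log2 scale for Hspa1a (SE, adjusted p = 0.45), -0.64 ± 0.18 for Hspa1b, -0.49 ± 0.17 for Hspd1, -0.49 ± 0.14 for Hspe1, -0.49 ± 0.15 for Hsph1 and -0.38 ± 0.13 for Dnajb1. The median over the 10 genes was -0.43 and over all genes -0.0038. DESeq2 also called 0 of the 10 over all cells.

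In neutrophil-like cells 0 of the 10 passed where 0.046% of all genes did, 4 had an unadjusted p under 0.05 (10.9% of all genes), and Hspa1a differed by -0.97 ± 0.21 (SE, adjusted p = 0.22) and Hspa1b by -0.75 ± 0.20 (adjusted p = 0.26). The macrophage marker sum in these cells was lower in the diabetic library on days 1, 5 and 7 and higher on day 3. Its part in the difference between the groups was not tested. In monocyte-like cells 0 passed where 0.0189% of all genes did, 5 had an unadjusted p under 0.05 (9.62% of all genes), and Hspa1a differed by -0.79 ± 0.15 (adjusted p = 0.13) and Hspa1b by -0.67 ± 0.12 (adjusted p = 0.11). DESeq2 called Hspa1a and Hspa1b in neutrophil-like cells (adjusted p = 0.0023 and 0.030) and Hspa1a, Hspa1b and Hspe1 in monocyte-like cells (adjusted p = 0.0012, 0.00042 and 0.029), all of them lower in diabetic wounds, where DESeq2 called 0.437% and 0.388% of all genes. Without the filter on low counts, edgeR called Hspa1a in neutrophil-like cells (adjusted p = 0.012) and the same 3 genes as DESeq2 in monocyte-like cells (adjusted p = 1.2e-05 for Hspa1a, 0.00061 for Hspa1b and 0.037 for Hspe1), where it called 1.09% and 1.24% of all genes. Without day 1, edgeR called Hspa1a in monocyte-like cells (-0.96 ± 0.14, adjusted p = 0.0499), where 0.103% of all genes were called. In macrophage-like cells 0 passed against 0.0477% of all genes, with 3 at an unadjusted p under 0.05 (7.76% of all genes): Hspa1a (-0.40 ± 0.17), Hspe1 (-0.31 ± 0.14) and Hspa5 (0.35 ± 0.14). In dendritic-like cells 0 passed against 0.01%, with 7 at an unadjusted p under 0.05 (6.23% of all genes), all of them lower in diabetic wounds. In T cell-like cells 0 passed against 0%, with 3 at an unadjusted p under 0.05 (2.83% of all genes): Hsph1 (-0.79 ± 0.27), Dnajb1 (-0.56 ± 0.20) and Hsp90aa1 (-0.51 ± 0.16). DESeq2 called 0 of the 10 in macrophage-like, dendritic-like and T cell-like cells.

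The largest cluster of monocyte-like cells differed between the 2 groups on all 4 days, and that of neutrophil-like cells on days 1, 3 and 5. Among monocyte-like cells of day 5, the cluster led by Vcan and Chil3 was the main one in diabetic wounds (49.2% of the class) and the cluster led by Ifit2 and Rsad2 in control wounds (53.0%). Within the Ifit2 cluster, Hspa1a was at 107, 495, 643 and 439 CPM in diabetic and 153.5, 1041, 498.5 and 830 in control wounds on days 1, 3, 5 and 7, so the diabetic library was the higher one on day 5. Within the Vcan cluster it was at 49.0, 213 and 54.0 in diabetic and 36.0, 258 and 151 in control wounds on days 1, 3 and 5. Among neutrophil-like cells of day 3, the cluster led by Hcar2 and Csf1 was the main one in diabetic wounds (33.1%) and the cluster led by Igkc and Igha in control wounds (64.2%). Within the Igkc cluster, Hspa1a was at 65.5, 201, 37.5 and 417 in diabetic and 59.3, 258, 150 and 920 in control wounds. The part of these clusters in the differences between the groups was not tested.

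Between the groups, Hspa5 changed direction with day. It was at 2122, 1851, 3082 and 2266 CPM over all control cells and 2104, 2958, 2438 and 3047 over all diabetic cells on days 1, 3, 5 and 7. The diabetic to control ratios were 0.99 (0.98 to 1.01), 1.60 (1.58 to 1.62), 0.791 (0.78 to 0.80) and 1.345 (1.331 to 1.359), so the diabetic library was higher on days 3 and 7 and lower on day 5. All 5 classes had the higher diabetic value on day 3 (1.19-fold to 1.89-fold), all 5 the lower value on day 5 (0.77-fold to 0.98-fold), and 4 of 5 the higher value on day 7, with T cell-like cells at 0.86-fold. In monocyte-like cells, for example, Hspa5 was at 2342, 1698, 3056 and 2149 in control and 2213, 3214, 2351 and 3527 in diabetic wounds. With 1 library a group and day, the difference between single days was not tested. An edgeR fit of the interaction of wound group with day, chosen after the data were seen, follows a steady change and not a switch back and forth. It called 0 of the 10 genes over all cells, in macrophage-like and in neutrophil-like cells, where 0% of all genes were called.

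The levels of the 10 genes over the 40 sums of 5 classes and 8 libraries moved closely together for some pairs. Pearson's r of log2(CPM + 10) was 0.97 for Hspa1a and Hspa1b and 0.95 for Hspd1 and Hspe1. It was 0.08 to 0.33 for Hspa5 with each of the other 9 genes. These sums share libraries, so the values are descriptions. Among 3310 other genes with a mean of at least 50 CPM, those most like Hspa1a were Mgat1 (r = 0.85), Cd81 (0.84) and Tmem59 (0.83). Those most like Hsp90aa1 were Ncl (0.93), Hsp90ab1 (0.91) and Ddx21 (0.90), and those most like Hspd1 were Tubb5, Hsp90ab1 and Cacybp (0.96 each). The closest to Hspa5 were Sel1l (0.68), which takes part in degradation at the endoplasmic reticulum, Pik3r5 (0.66) and Ndrg1 (0.64).

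The other chaperone genes were read from lists fixed by name, with TMM factors unless said otherwise. Under those factors 24.6% of all genes were higher and 25.6% lower in macrophage-like than in neutrophil-like cells, and 22.1% rose and 20.3% fell with day in neutrophil-like cells. With scaling to total UMIs these shares were 51.3%, 13.2%, 47.2% and 4.87%. Of 8 genes for subunits of the cytosolic chaperonin CCT, which folds actin and tubulin, 7 were tested. All 7 were higher in macrophage-like than in neutrophil-like cells and all 7 rose with day in neutrophil-like cells, with Tcp1 (1.06 ± 0.24 on the log2 scale; 0.27 ± 0.07 a day) and Cct2 (0.91 ± 0.24; 0.27 ± 0.05) among the leading ones. Of 8 other mitochondrial chaperones and proteases, 4 were higher in macrophage-like cells, led by Lonp1 (0.95 ± 0.24), and 5 rose in neutrophil-like cells, led by Dnaja3 (0.57 ± 0.11 a day). Of 32 other cytosolic chaperones and cochaperones, 11 were higher and 7 lower in macrophage-like cells. The small heat-shock gene Hspb1 (1.28 ± 0.45), Bag3 (1.42 ± 0.25) and Chordc1 (1.32 ± 0.26) were among the higher, and Hspa4l (-2.61 ± 0.24) and Hspa13 (-1.32 ± 0.22) among the lower. Of the 31 of these that were tested in neutrophil-like cells, 9 rose and 2 fell with day. With scaling to total UMIs, which raises the median of all genes as given above, 21 of these cytosolic genes were higher and 2 lower in macrophage-like cells, Hspa4l and Hspa13 being the lower ones, and 18 rose and 1 fell with day in neutrophil-like cells. The 7 CCT genes kept both calls, and all 8 mitochondrial genes were called in both comparisons.

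Of 21 other genes of endoplasmic reticulum folding and the unfolded protein response, 9 were higher and 5 lower in macrophage-like cells. The higher ones were led by Pdia4, a disulfide isomerase (1.15 ± 0.23 on the log2 scale), and Dnajc3 (0.93 ± 0.23), and the lower ones by Ddit3 (-1.94 ± 0.27), the stress-response transcription factor CHOP, and Herpud1 (-1.18 ± 0.23). In neutrophil-like cells 7 rose and 3 fell with day, and Pdia4 (0.30 ± 0.06 a day) and Ddit3 (-0.30 ± 0.07) again stood at the ends. Of 16 immediate early genes, which respond within minutes to handling as well as to other stimuli, 3 were higher and 10 lower in macrophage-like cells, and 2 rose and 5 fell with day in neutrophil-like cells. Their summed level in neutrophil-like cells was 15100, 24110, 18260 and 16930 CPM in control and 14990, 15850, 19030 and 15980 in diabetic wounds. That sum, over genes of which some rose and some fell, was highest on day 3 in control and on day 5 in diabetic wounds. Hspa1a was highest on day 7 in both, and the part of handling was not tested. With scaling to total UMIs, 15 of the endoplasmic reticulum genes were higher and 2 lower in macrophage-like cells, Ddit3 and Herpud1 being the lower ones, and 16 rose and 0 fell in neutrophil-like cells, where Ddit3 changed by -0.15 a day (adjusted p = 0.074). Of the immediate early genes, 5 were then higher and 6 lower in macrophage-like cells, and 4 rose and 0 fell with day. Between diabetic and control wounds, edgeR called 0 genes of any of these lists over all cells or in any of the 5 classes. At an unadjusted p under 0.05 over all cells (11.0% of all genes), some genes of these lists differed. Hspb1 (-1.63 ± 0.36), Dnaja3 (-0.58 ± 0.21), Hspbp1 (-0.51 ± 0.20) and Ahsa1 (-0.38 ± 0.13) were lower in diabetic wounds. Herpud1 (0.49 ± 0.12), Hsf2 (0.40 ± 0.12) and Xbp1 (0.35 ± 0.13) were higher. Hspb1 was lower at such a p in neutrophil-like (-2.18), monocyte-like (-1.12), macrophage-like (-0.96) and T cell-like cells (-1.90) as well. Some immediate early genes were also lower at such a p over all cells. These were Fosb (-0.82 ± 0.18), Klf4 (-0.70 ± 0.19), Fos (-0.68 ± 0.23), Egr1 (-0.62 ± 0.16) and Jun (-0.43 ± 0.16). So were Fosb (-1.07 ± 0.23), Klf4 (-1.03 ± 0.21) and Fos (-0.82 ± 0.28) in neutrophil-like cells. At such a p in monocyte-like cells, Fosb (-0.77), Nr4a1 (-0.62), Fos (-0.59), Egr1 (-0.57), Klf4 (-0.52) and Jun (-0.43) were lower. Socs3 was higher there (0.39 ± 0.12). In macrophage-like cells Fos (-0.74), Nr4a1 (-0.57), Junb (-0.48), Jun (-0.44) and Fosb (-0.32) were lower and Socs3 (0.36) was higher. In dendritic-like cells Klf4 (-0.55) and Fosb (-0.49) were lower, and Socs3 (0.44) and Klf6 (0.26) were higher. In T cell-like cells Egr1 (-0.78), Jun (-0.61) and Nr4a1 (-0.48) were lower. The part of these listed genes in the differences of the 10 genes was not tested.

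The unnamed cluster, led by Gm26917 and Malat1, had a median of 793 UMIs a cell and Hspa1a among its 10 leading genes. Its Hspa1a level was 175, 1823, 807 and 1009 CPM in control and 338, 1411, 368 and 1639 in diabetic wounds on days 1, 3, 5 and 7, with day 1 the lowest and day 5 below days 3 and 7 in both groups. The highest day was day 3 in control and day 7 in diabetic wounds. It held 0.9% to 8.2% of the UMIs of a library.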

How the data were processed

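CD45+ cells of 4 diabetic and 4 control wound libraries were sequenced. According to the study's methods, the authors trimmed reads with fastp (version 0.20.1 in the submitters' processing notes), extracted cell labels and molecular identifiers (UMI-tools) and aligned them (STAR) against mouse Ensembl release 92, whereas the processing notes name the build mm9; the platform is BD Rhapsody in the methods and 10X Genomics in the series record. The deposited values are whole-number counts of UMIs, one value for each gene in each barcode, left unnormalized by the authors. Whether counting used strand is not given in the sources used here. Promoter windows and gene positions came from RefSeq (GRCm38.p6) and GENCODE M21.

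A barcode counted as a cell when it had more than 200 genes and a mitochondrial share below 20%, and mitochondrial genes were then dropped. Clusters (scanpy 1.11.5, Leiden with leidenalg 0.10.2, 2000 variable genes, 10 components, 30 neighbours, resolution 0.8) were drawn without the chaperone and immediate early genes and named from fixed markers; doublets were not removed. UMIs were summed per library and class (at least 20 cells) and tested with edgeR 4.0.16 (TMM, filterByExpr, quasi-likelihood F test, Benjamini-Hochberg adjustment over all genes tested, called at an adjusted p of 0.05 or less). SE is the log2 difference divided by the root of F. Each group and day has 1 library of pooled mice, so no p-value measures spread between mice. The test of the groups, with day as a block, weighs the difference against how much it varies between days. The trend test weighs the slope against the scatter of libraries about the line. The comparison of classes weighs the difference against how much it varies between libraries. Ratios on one day carry exact 95% Poisson intervals, for counting error alone. The fits were tested on simulated data first. The 10 genes, the lists and the tests were chosen with earlier results of these data known. Named genes are all 10, up to 3 called genes at each end of every other list, and the 3 closest genes by correlation. The genes of the other lists named for the difference between the groups, immediate early genes among them, were chosen after the data were seen. Alternatives tried were other size factors, total-UMI scaling, DESeq2 1.42.0, no filter, no day term, each day or library left out, other clusterings and other cell filters. Scaling to total UMIs, leaving out the unnamed cluster or the osteoclast-like cells, day as a factor and the terms for interaction with day were chosen after seeing the data. The values of 1 monocyte-like cluster are not reported here.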

Additional observations from a re-analysis of the deposited data

Results flagged for a closer look

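The ratio of Hspa5 over all cells, diabetic to control, changed direction between days. It was 1.598 on day 3 and 1.345 on day 7, above 1, and 0.791 on day 5, below 1, and each 95% counting interval lay on that side of 1. These values were singled out because days differ in direction under the same comparison. With 1 library per group and day the difference between single days was not tested, and the cause was not tested. In the edgeR fit of the interaction of wound group with day, Hspa5 was not called over all cells, where 0% of all genes were.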

How the results depend on the processing

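Of the counts of the 10 genes called, 127 of the alternative values stayed within 1.5 times the value given and 13 did not, and of the values of single called genes 240 kept their call and direction, 28 lost the call and 1 reversed. Between diabetic and control wounds, the count in neutrophil-like cells went from 0 to 1 without the filter on low counts and to 2 with DESeq2, and in monocyte-like cells from 0 to 3 without the filter, to 3 with DESeq2 and to 0 to 1 with a day left out. The trend over days in all cells, 3 genes, became 5 with scaling to total UMIs and 0 to 5 with a library left out. The trend in macrophage-like cells, 0 genes, became 1 with cells named singly from marker scores and 1 at resolution 0.4. The difference of Hspa5 between macrophage-like and neutrophil-like cells reversed to 0.21 with scaling to total UMIs, and the cause was not tested beyond that change of scaling. Without the day term, which is the fit with no replicate block, the number of the 10 genes called between the groups stayed at 0 over all cells and in each of the 5 classes. With 1 library per group and day, the spread between mice is not seen. Counting depth limits single-day ratios little over all cells but more within classes, where the Hspa1a ratio of T cell-like cells on day 1, 4.03 (2.35 to 7.36), rests on 87 diabetic and 16 control UMIs.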

Other observations

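Barcodes left out by the filter on cells also carried Hspa1a. In control wounds they had 470, 1558, 715 and 1094 CPM of it on days 1, 3, 5 and 7, from 31, 191, 311 and 41 UMIs in 197, 423, 1304 and 47 barcodes. In diabetic wounds they had 251, 1437, 218 and 1044 CPM, from 31, 208, 29 and 104 UMIs in 477, 396, 497 and 403 barcodes. Day 5 was below days 3 and 7 in both groups there, while the lowest day was day 1 in control and day 5 in diabetic wounds.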
